A study of Saccharomyces cerevisiae with 21 samples.

Results

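The comparison set yeast cells held for 15 min without glucose against cells growing in glucose, in libraries of ribosome-protected fragments (RPFs) made with cycloheximide (CHX) pretreatment. Its members were the 4 of 21 samples that the labels give as pretreated RPF libraries from these conditions, 2 in log phase and 2 starved. Both groups were wild-type BY4741, a haploid of mating type a without working copies of several nutritional marker genes, grown in synthetic complete medium with 2% glucose. Starved cells were moved to the same medium without glucose for 15 min, and log phase cells were not. All 4 samples received CHX, which stalls elongating ribosomes, for 1 min before harvest, so no library shows ribosomes without it. Fragments of 28 nt were taken from monosomes, polyadenylated and sequenced.

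Yeast ferments glucose, and glucose keeps protein kinase A active and the kinase Snf1 inactive. When glucose is lost, Snf1 and the stress activators Msn2 and Msn4 turn on genes for reserve carbohydrate, other carbon sources and protein folding, while genes for making ribosomes are turned down. Translation also falls within minutes, and ribosomes that have started on an mRNA still have to travel its length to leave it. An RPF count therefore reflects both how much of an mRNA there is and how many ribosomes it carries, and these cannot be told apart in the counts used here. A polarity score gives the position of those ribosomes, running from -1 (reads at the start of the coding sequence) to 1 (reads at its end).

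The libraries held 4273703 and 5170260 reads in the log phase replicates and 2000513 and 1862525 in the starved ones, over 5578 genes. Counts are relative to the total of each library, and the amount of RPFs per cell was not measured. LEU2, MET17 and URA3, which are deleted in BY4741, had at most 6 reads in any library. HIS3, also listed as deleted, was not silent, with over 25 reads in every library. These 4 markers made up 0.0128% and 0.0077% of the log libraries, against 0.00625% and 0.00354% of the starved ones. The alpha-specific STE3 had 2 to 13 reads, while the a-specific STE2, the alpha-factor receptor, had 340 to 3988. Among 4 alpha-specific genes only SAG1 had enough reads to be tested for counts, while all 6 a-specific genes did. The alpha-specific genes together made up at most 0.00174% of any library, and the a-specific ones at least 0.0742%. The label for rRNA removal is RiboZero in 3 libraries and none in starved replicate 2, so values without that library are also values within 1 kind of rRNA removal. Pearson's r of log2 CPM (reads scaled to a common library size, TMM-adjusted) between replicates, across genes, was 0.969 in log phase and 0.956 in starvation. Per the study's methods each starved sample was a portion of a culture whose other portion stayed in glucose, but no source says that equal replicate numbers mark 1 culture, nor that replicates are separate cultures, so p-values measure the spread between these libraries.

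Of 5090 genes tested in edgeR's quasi-likelihood test, 393 rose (7.72%) and 251 fell (4.93%) at an adjusted p under 0.05. These are the background shares for every count below. With the replicate number as a block, 840 rose (16.5%) and 752 fell (14.8%), and blocked counts are given where they differ by over 1.5 times. Without log replicate 1, 210 genes rose and 113 fell, and without starved replicate 2, 145 rose and 21 fell. Without that library 488 genes fell at an unadjusted p under 0.05. For polarity, limma was run on the 3979 genes with over 25 reads in each of the 4 libraries, of which 1652 rose (41.5%) and 20 fell (0.503%), and with the block 2233 (56.1%) and 46 (1.16%). Leaving out either log library left 0 polarity rises without log replicate 1 and 1 without log replicate 2, with 1196 and 1203 rises at an unadjusted p under 0.05. Every polarity call named in the text is therefore lost without either log library, while its direction is kept.

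Promoters of some genes that moved are shown first, since rising and falling genes differed in the short motifs they hold. The stress response element (STRE, AGGGG on either strand) is bound by Msn2 and Msn4, and the post-diauxic shift element (PDS, AGGGAT) by Gis1. PAC (GATGAG) and RRPE (AAAAATTT) mark promoters of ribosome biogenesis genes and are bound by Dot6 and Tod6 and by Stb3. All were searched on both strands, and STRE and PDS share their first letters but cannot start at the same base. Each sequence below is the 250 bases before the coding start, 5' to 3' on the strand of the gene, from the RefSeq R64 genome, with the named motifs in capitals. The sequences were chosen because they hold these motifs and do not stand for all genes that moved. The first 4 belong to genes that rose and the last 3 to ribosome biogenesis genes that fell.
RGI1, chrV:291816-292065, + strand, STRE: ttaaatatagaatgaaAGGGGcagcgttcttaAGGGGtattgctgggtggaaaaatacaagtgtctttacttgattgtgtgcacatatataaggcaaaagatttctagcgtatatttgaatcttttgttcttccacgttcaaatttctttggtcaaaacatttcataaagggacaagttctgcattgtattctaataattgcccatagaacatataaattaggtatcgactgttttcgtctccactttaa
DDR2, chrXV:231756-232005, - strand, STRE: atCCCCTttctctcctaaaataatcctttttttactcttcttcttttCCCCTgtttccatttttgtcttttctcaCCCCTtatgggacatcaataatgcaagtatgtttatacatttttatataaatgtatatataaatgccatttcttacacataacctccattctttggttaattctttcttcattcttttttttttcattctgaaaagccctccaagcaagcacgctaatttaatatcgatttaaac
HSP104, chrXII:88373-88622, + strand, STRE: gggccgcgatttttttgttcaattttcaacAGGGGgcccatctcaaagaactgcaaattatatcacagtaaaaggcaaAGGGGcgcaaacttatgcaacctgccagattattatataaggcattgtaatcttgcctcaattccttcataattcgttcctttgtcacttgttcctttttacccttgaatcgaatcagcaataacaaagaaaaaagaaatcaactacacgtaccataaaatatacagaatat
ROQ1, chrX:146109-146358, + strand, STRE and PDS: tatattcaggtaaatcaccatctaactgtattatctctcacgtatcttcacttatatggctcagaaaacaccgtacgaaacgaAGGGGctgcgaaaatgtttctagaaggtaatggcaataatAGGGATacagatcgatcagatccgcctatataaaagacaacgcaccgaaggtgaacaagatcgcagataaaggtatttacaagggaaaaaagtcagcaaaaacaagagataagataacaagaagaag
NOP10, chrVIII:241414-241663, + strand, PAC and RRPE: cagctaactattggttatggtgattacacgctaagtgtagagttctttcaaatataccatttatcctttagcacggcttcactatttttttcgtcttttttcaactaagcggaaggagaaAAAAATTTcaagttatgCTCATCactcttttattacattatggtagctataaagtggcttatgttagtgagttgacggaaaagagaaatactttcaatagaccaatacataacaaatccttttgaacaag
KRR1, chrIII:23380-23629, - strand, PAC and RRPE: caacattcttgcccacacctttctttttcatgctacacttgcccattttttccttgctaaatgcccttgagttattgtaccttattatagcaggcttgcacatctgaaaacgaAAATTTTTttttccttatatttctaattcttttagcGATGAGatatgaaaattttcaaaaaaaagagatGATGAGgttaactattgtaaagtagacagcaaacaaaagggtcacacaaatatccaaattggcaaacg
NHP2, chrIV:87262-87511, + strand, PAC and RRPE: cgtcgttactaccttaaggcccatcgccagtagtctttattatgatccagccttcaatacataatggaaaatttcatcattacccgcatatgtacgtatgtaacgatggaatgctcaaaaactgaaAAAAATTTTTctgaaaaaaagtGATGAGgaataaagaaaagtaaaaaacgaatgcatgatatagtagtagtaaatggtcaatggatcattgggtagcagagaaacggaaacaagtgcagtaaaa

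A STRE lay in the 250 bases before 970 of 5084 genes tested (19.1%). It lay before 146 of the 393 genes that rose (37.2%) and before 22 of the 251 that fell (8.76%). Read the other way, 247 of 4114 genes without a STRE rose (6%), 107 of 861 with 1 STRE (12.4%), and 39 of 109 with 2 or more (35.8%). No gene with 2 or more STREs fell in edgeR, and 5 did with the replicate block, with which 13.9%, 25.6% and 44.0% of these 3 sets rose. PDS differed little, at 7.69% of the 5084, 10.4% of those that rose and 8.76% of those that fell. PAC lay before 865 of the 5084 (30.7% of those that fell) and RRPE before 14.9% (27.9%). Genes with both PAC and RRPE went the other way: 2 of 294 rose (0.680%) and 41 fell (13.9%), beside 145 of 3754 (3.86%) with neither motif, and with the block 35.0% and 12.2% fell. The same order held among genes that were not in the list of ribosome biogenesis factors, where 25 of 186 with both motifs fell (13.4%), and among coding sequences of 1000 nt or more, where 15 of 202 fell (7.43%) against 17 of 2374 with neither (0.716%). Among the 12 largest rises with at least 20 CPM, 6 genes hold a STRE, 3 hold PAC and 1 holds RRPE. Among the 12 largest falls, 0 hold a STRE, 1 holds PAC and 3 hold RRPE. These shares are descriptions of letters in a window, with no test.

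The genes that rose most had few reads in log phase. The groups did not overlap for any of the 12 named, which were picked by these same values. Over all 5090 genes tested the groups did not overlap in 1613 that were higher in starvation and 1632 that were lower. TMA10, a small ribosome-associated protein, had 3.54 and 4.11 CPM in log phase and 1779 and 965 in starvation, a log2 change of 8.47 ± 0.52 (SE, adjusted p = 0.0021). HSP30, a small membrane protein that restrains the plasma membrane proton pump, went from 2.28 and 3.57 CPM to 817 and 299 (log2 change 7.53 ± 0.65). RGI1, needed for energy metabolism in respiration, went from 1.77 and 3.75 CPM to 290 and 484 (log2 change 7.06 ± 0.48). Both log phase values lay far under both starved values in each case.

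**Figure D1:**
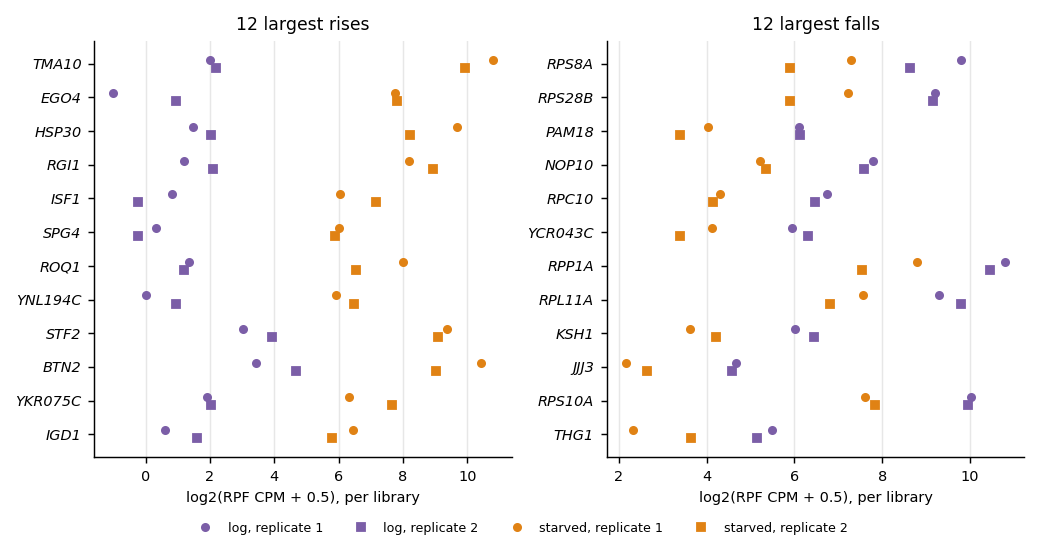
RPF counts per library of the 12 genes with the largest rises (left, 20 CPM or more when starved) and the 12 with the largest falls (right), as log2(CPM + 0.5), with purple for log phase, orange for starvation, circles for replicate 1 and squares for replicate 2. The starved libraries lie right of the log libraries in every gene on the left, with TMA10 from 3.54 and 4.11 CPM to 1779 and 965, and left of them in every gene on the right.

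Others of the 12 largest rises, among genes with at least 20 CPM in starvation, were ROQ1, a stress-induced regulator of the ubiquitin ligase Ubr1 (log2 change 6.50), BTN2, which sorts misfolded proteins into deposits (5.72), and STF2, a small stress protein named for its binding to the ATP synthase (5.74). IGD1, an inhibitor of glycogen debranching, rose by 5.23, and ISF1, with a role in respiratory growth, by 7.06. YNL194C, a membrane protein of the eisosome family, rose by 6.11 and YKR075C by 5.33. EGO4 had 0 and 8 reads in the log libraries against 379 and 475. SPG4 had 3 and 2 reads against 114 and 123. None of these 12 calls was lost when any 1 library was left out.

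Targets of Msn2 and Msn4 rose as a group. Of 25 tested, 23 rose and 0 fell, with a median log2 change of 3.46, beside 0.00 over all genes. This list holds genes known as stress targets, so its direction is not independent of what is known of starvation. HSP12, a membrane-protecting stress protein, had 29.9 and 23.9 CPM in log phase and 504 and 502 in starvation (log2 change 4.23 ± 0.27). SPI1, a cell wall protein, rose by 4.82, DDR2 by 4.96, and HOR7 had 233 and 194 CPM against 1685 and 1728. PNC1, the nicotinamidase, rose by 3.58, the mitochondrial OM45 by 3.59, MSC1 by 3.46, and the cytosolic catalase CTT1 by 2.51. Without log replicate 1, 18 of the list rose, and without starved replicate 2, 13.

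Chaperones split by class. Of 7 disaggregases, sorting factors and small heat shock proteins, 5 rose, with a median log2 change of 3.09. HSP104, the disaggregase that pulls proteins out of aggregates, had 133 and 294 CPM in log phase and 3175 and 1791 in starvation (log2 change 3.54 ± 0.53, adjusted p = 0.016). HSP26 went from 6.83 and 9.10 CPM to 226 and 188 (log2 change 4.68 ± 0.28), and the mitochondrial HSP78 rose by 2.82. HSP42 rose by 3.09, but not without starved replicate 2, the only call of the 5 lost with 1 library left out.

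Of 14 cytosolic Hsp70, Hsp110 and Hsp40 genes 5 rose, with a median log2 change of 0.35. SSA4 had 17.7 and 28 CPM in log phase and 287 and 153 in starvation (log2 change 3.25). The nucleotide exchange factors FES1 and SSE2 rose by 1.85 and 1.80, and the Hsp40 APJ1 by 2.84. SSA1 rose by 2.52, a call lost without log replicate 1, and is a near copy of SSA2, whose change was 0.11 ± 0.42. SSB1, the Hsp70 that works on nascent chains, had 2996 and 2525 CPM against 1831 and 1541, a change of -0.71 that did not pass (adjusted p = 0.19). HSP82, the inducible Hsp90, had 203 and 495 CPM against 1577 and 877, and did not pass either (log2 change 1.81, adjusted p = 0.065), but passed with the replicate block (adjusted p = 0.035).

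Genes for reserve carbohydrate rose. Of 10 glycogen genes tested, 6 rose and 0 fell, with a median log2 change of 2.38. The branching enzyme GLC3 went from 5.82 and 16.2 CPM to 85.8 and 154 (log2 change 3.41), the phosphorylase GPH1 rose by 2.89 and the debranching enzyme GDB1 by 2.27, so enzymes of both synthesis and breakdown were among them. Of 10 trehalose genes 4 rose, and 9 with the replicate block. The 4 were the synthase subunits TPS1 (1.24), TPS2 (1.87) and TSL1 (2.14), and PGM2 (4.11), the main phosphoglucomutase. All 4 calls, and that of the glycogen synthase GSY2 (2.16), were lost without starved replicate 2, and those of TPS1 and TSL1 also without starved replicate 1. TPS1 was also lost without log replicate 1. Without starved replicate 2, 3 glycogen genes rose.

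Genes for other carbon sources rose, from low levels. In the list for gluconeogenesis and the glyoxylate cycle with the use of lactate and acetate, 10 of 15 genes rose and 0 fell. Leaving out log replicate 1 left 5 of them, and starved replicate 2, 4. JEN1, the lactate permease, had 1.27 and 1.79 CPM in log phase and 36.7 and 50.9 in starvation (log2 change 4.79). ACS1, the acetyl-CoA synthetase of respiring cells, rose by 2.96, while its partner ACS2 changed by 0.83 and did not pass the test (adjusted p = 0.11, or 0.033 with the replicate block). ALD4, the mitochondrial aldehyde dehydrogenase, rose by 2.53.

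Among 21 genes of the Snf1 pathway and glucose repression, 4 rose and 0 fell, and with the replicate block 10 rose and 1 fell. MTH1, which holds hexose transporter genes off when glucose is absent, went from 1.52 and 7.86 CPM to 113 and 231 (log2 change 5.12 ± 0.68). CAT8, the activator of gluconeogenic genes, went from 1.52 and 7.50 CPM to 92.6 and 80.0 (log2 change 4.17). The repressor MIG2 rose by 2.19, a call lost without starved replicate 2, and the fourth, CYC8, is a corepressor whose call was lost without 3 of the 4 libraries. Of 24 genes of the Ras and protein kinase A pathway 5 rose, of which GPA2, a G protein alpha subunit in glucose sensing, kept its call with any library left out (log2 change 1.68). Without log replicate 1 or without starved replicate 2, GPA2 alone of the 24 rose, and with the replicate block 12 rose and 3 fell.

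In glycolysis, isozymes of 1 step differed in their change. Of 20 genes 5 rose and 0 fell, and without starved replicate 2, 3 rose. With the replicate block 9 rose. HXK1, the hexokinase of cells without glucose, had 23.8 and 52.0 CPM in log phase and 305 and 401 in starvation (log2 change 3.21), and EMI2, a glucokinase paralog, had 30.6 and 31.4 against 315 and 316 (3.35). HXK2, the hexokinase of growing cells, had 1471 and 1618 CPM against 4421 and 3303 and did not pass (log2 change 1.32, adjusted p = 0.056), but passed with the replicate block (adjusted p = 0.013). TDH1 rose by 2.26, while TDH2 (1.13) and TDH3 (0.33) did not pass. TDH2 passed with the block (adjusted p = 0.021). These 3 glyceraldehyde-3-phosphate dehydrogenase genes are near copies, so some reads may be counted on the wrong one.

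**Figure D2:**
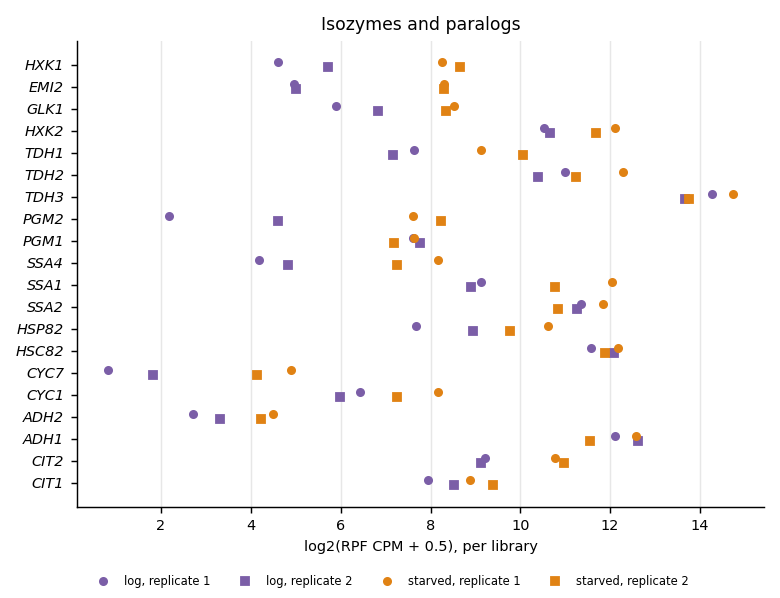
RPF counts per library of isozymes and paralogs as log2(CPM + 0.5), with purple for log phase, orange for starvation, circles for replicate 1 and squares for replicate 2. HXK1 and EMI2 moved from between 23.8 and 52.0 CPM to between 305 and 401, while the symbols of TDH3, PGM1, HSC82 and ADH1 overlap between conditions.

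The other risen genes were GLK1, the glucokinase (log2 change 2.00, lost without starved replicate 2), and GPM2 (2.35, lost without log replicate 1 or starved replicate 2). PGK1, phosphoglycerate kinase, did not pass the test. It had 11719 and 7407 CPM in log phase and 22415 and 10497 in starvation, a log2 change of 0.78 (adjusted p = 0.35). CDC19, the pyruvate kinase, had 21270 and 14864 against 25334 and 14504. The groups of CDC19 overlapped (log2 change 0.14, adjusted p = 0.87), and the higher log value of PGK1 lay above its lower starved one. PDC1, PFK1 and PGI1 changed by 0.32, 0.46 and 0.41 without passing the test. The paralog pattern recurred elsewhere: PGM2 rose by 4.11 and PGM1 changed by -0.26, and CYC7, the cytochrome c of low oxygen and stress, rose by 3.35 against 1.56 for CYC1, a call lost without starved replicate 1. In citrate synthases, the peroxisomal CIT2 rose by 1.71, a call lost without any of 3 libraries, and the mitochondrial CIT1 changed by 0.91 without passing, except with the replicate block (adjusted p = 0.018).

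Among 9 hexose transporters and sensors tested, 5 rose, and 8 with the replicate block. HXT2, a high-affinity carrier, had 489 and 710 CPM in log phase and 3654 and 4325 in starvation (log2 change 2.73), a call lost without log replicate 1. HXT7 rose by 3.02, but HXT6 and HXT7 are near copies and its reads, at a polarity of 0.928 to 0.942 in the 4 libraries, lay at the 3' end of the gene. HXT4 had 31.4 and 12 CPM in log phase and 79.6 and 250 in starvation (2.95), a call lost without starved replicate 2. Without log replicate 1 or without starved replicate 2, 2 of the 9 rose.

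Some genes of the vacuole and autophagy rose, beside 7.72% of all genes tested. ATG8, the ubiquitin-like protein of autophagosome membranes, had 12.9 and 14.1 CPM in log phase and 156 and 124 in starvation (log2 change 3.37 ± 0.25), and ATG41 had 134 and 30.9 against 1931 and 682 (3.99 ± 0.83). Of 33 ATG genes, 4 rose and 1 fell (10 and 1 with the replicate block), 2 and 0 without log replicate 1 or without starved replicate 2. Of 8 vacuolar proteases and inhibitors, 3 rose with any library left out: the protease PRB1 (2.16), its inhibitor PBI2 (2.43) and the aminopeptidase APE1 (2.20). Of 39 genes of the respiratory chain and ATP synthase, 8 rose and 0 fell, among them STF2, the ATP synthase inhibitor factor STF1 (2.60) and CYC7. The NADH dehydrogenase NDI1 rose by 2.04, a call lost without starved replicate 2. Without log replicate 1, 5 of the 39 rose, and without starved replicate 2, 4, while with the replicate block 16 rose and 2 fell.

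In purine synthesis several genes of the pathway rose. ADE17, which makes inosine monophosphate, had 150 and 116 CPM in log phase and 1595 and 1119 in starvation (log2 change 3.35 ± 0.35, adjusted p = 0.0053). ADE1 and ADE2 both rose by 2.25 and ADE13 by 1.79, the last lost without either log library. SHM2, a serine hydroxymethyltransferase that feeds one-carbon units to the pathway, rose by 2.39, a call lost without log replicate 2 or starved replicate 1. Of 20 genes tested, 5 rose and 2 fell, and both falls were of phosphoribosyl pyrophosphate synthetase genes whose calls were lost without log replicate 1 or starved replicate 2. Leaving out log replicate 1 left 3 rises, and with the replicate block 9 rose and 4 fell.

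Ribosomal protein genes fell as a group. Of 76 large-subunit genes 28 fell and 0 rose, with a median log2 change of -1.35, and of 56 small-subunit genes 17 fell and 0 rose, with a median of -1.39. Without starved replicate 2, 4 and 3 fell, and without log replicate 1, 10 and 13. With the replicate block 58 large-subunit and 52 small-subunit genes fell. The large-subunit genes took 10.2% and 10.5% of reads in the log libraries and 5.29% and 3.74% in the starved ones, and the small-subunit genes 7.92% and 7.99% against 3.82% and 2.58%. Most of these genes come as near-identical pairs, so the change of 1 copy is uncertain and the sum is the safer value.

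RPS28B, a small-subunit protein, had 586 and 571 CPM in log phase and 149 and 59.5 in starvation (log2 change -2.48 ± 0.45). RPS10A had 1036 and 991 against 194 and 227 (-2.26), and RPL14B 509 and 456 against 143 and 73.8 (-2.16). These 3 calls held with any library left out. RPS8A (-2.57), RPL11A (-2.33) and the P-stalk protein RPP1A (-2.34) fell as far, but their calls were lost without starved replicate 2. For RPS8A the log libraries themselves differed, at 888 and 395 CPM, against 157 and 59.5.

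Ribosome biogenesis genes, some of whose promoters are shown above, fell by less. Of 152, 21 fell and 0 rose, with a median log2 change of -0.50, and the change lay below 0 in 134. NOP10, a component of the snoRNPs that modify rRNA, had 220 and 190 CPM in log phase and 36.7 and 40.0 in starvation (log2 change -2.41 ± 0.23, adjusted p = 0.0042). KRR1, a small-subunit processing factor, fell from 262 and 212 CPM to 96.5 and 76.2, and the methyltransferases DIM1 and EMG1 fell by 1.61 and 1.54 on the log2 scale. NHP2 had 369 and 200 CPM against 119 and 75.2 (log2 change -1.55). All 21 calls, those of KRR1, DIM1, EMG1 and NHP2 included, were lost in edgeR without starved replicate 2, and without log replicate 1, 6 genes fell. With the replicate block 56 fell and 2 rose. NOP10, which the list does not hold, kept its call in both cases.

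Other large falls were of short genes with varied roles. PAM18, of the mitochondrial import motor, had 271 and 390 reads in the log libraries against 28 and 21 (log2 change -2.43). RPC10, a subunit shared by all nuclear RNA polymerases, had 106 and 87.3 CPM against 19.2 and 17.1 CPM (-2.41). KSH1 (-2.31), JJJ3 (-2.29), THG1 (-2.23) and YCR043C (-2.38) followed, none of whose calls was lost with 1 library left out. MFA2, which encodes the a-factor pheromone, fell from 246 and 234 CPM to 44.0 and 70.9.

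In 4 multi-subunit complexes, chosen after their values were seen, short genes fell further than long ones. In the vacuolar proton ATPase the median log2 change was -0.95 in 11 genes under 1000 nt, of which 4 fell, and -0.18 in 7 longer ones, of which 2 fell. The assembly factors PKR1 (369 nt) and VMA21 (234 nt) fell by 1.86 and 1.67 on the log2 scale, while the long subunits VPH1 (2523 nt) and VMA1 (3216 nt) changed by 0.19 and 0.35. In the ER translocon, SSS1 (243 nt) had 248 and 255 CPM against 81.9 and 58.6 (log2 change -1.84), and 3 of 8 genes under 1000 nt fell against 0 of 16 longer ones. In RNA polymerase III, 4 of 7 genes under 1000 nt fell, among them RPC11 (333 nt, log2 change -1.73), and 1 of 14 longer ones, while the largest subunit RPO31 (4383 nt) changed by 0.27. In the vesicle coats, ARF1 (546 nt) fell by 1.36 on the log2 scale and SEC31 (3822 nt) changed by 0.76. Across members, Spearman's rho of coding length with log2 change was 0.57 in the ATPase, 0.71 in the translocon, 0.75 in the polymerase and 0.78 in the coats, but 0.14 in the chaperonin CCT with prefoldin and -0.13 in the respiratory chain. In CCT with prefoldin the medians kept the order, at -0.98 in 6 genes under 1000 nt and -0.44 in 8 longer ones. In 90 mitochondrial ribosomal proteins rho was 0.26. Their medians went the other way, at -0.24 in 71 genes under 1000 nt and -0.30 in 19 longer ones. Without starved replicate 2, 1 gene of the ATPase and 1 of the translocon fell and all falls in the polymerase and the coats were lost in edgeR. Without log replicate 1, 2 genes fell in the ATPase, 2 in the translocon, 1 in the polymerase and 1 in the coats. With the replicate block 6 short and 4 long translocon genes fell, and 4 short coat genes. The calls of VMA21, RPC11 and ARF1 were lost without starved replicate 2, and that of ARF1 also without log replicate 1. Those of PKR1 and SSS1 held with any library left out.

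The same order ran through all genes. The median log2 change was -0.52 in 579 genes with a coding sequence under 500 nt, -0.33 from 500 to under 1000 nt, -0.07 from 1000 to under 2000 nt, 0.33 from 2000 to under 4000 nt and 0.86 in 179 genes of 4000 nt or more. In the shortest class 93 genes fell (16.1%) and 60 rose (10.4%), and in the longest 0 fell and 51 rose (28.5%), beside 4.93% and 7.72% over all genes. Without ribosomal proteins the median of the shortest class was -0.34. With each library left out in turn, the medians stayed between -0.61 and -0.45 in the shortest class and between 0.74 and 0.95 in the longest. The count of calls was less steady. Of the longest genes 6 rose without starved replicate 2 and 8 without log replicate 1, and of the shortest 16 fell without starved replicate 2, 53 without log replicate 1 and 124 without log replicate 2. Rises in the shortest class numbered 38 without starved replicate 2. With the replicate block 213 of the shortest fell and 130 of the longest rose. The share of all reads on genes of 4000 nt or more was 4.63% and 5.17% in log phase and 7.15% and 9.81% in starvation.

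**Figure D3:**
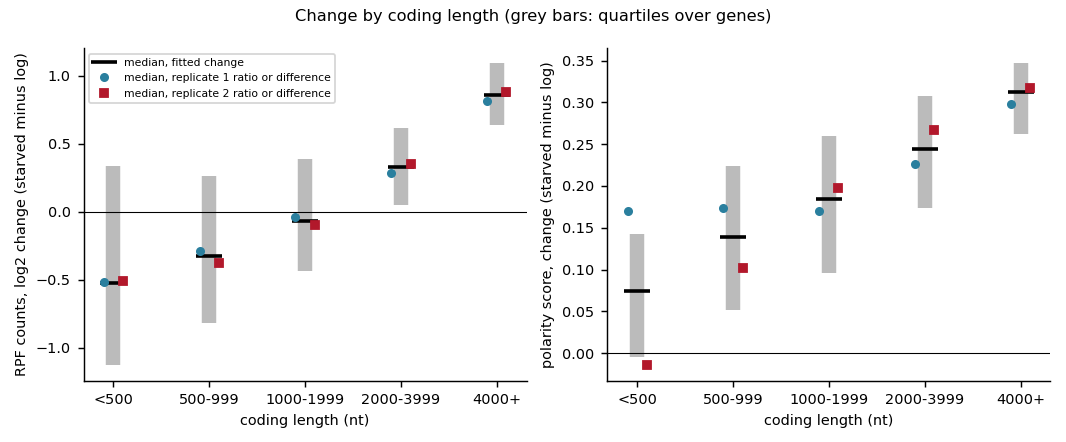
Change between starvation and log phase by coding length, for RPF counts on a log2 scale (left) and polarity scores (right), with the median of the fitted change as a black bar, quartiles over genes in grey, and the medians of the replicate 1 and replicate 2 ratios or differences as blue circles and red squares. Count medians rise from -0.52 to 0.86 and nearly coincide in both replicates, while polarity medians rise from 0.0748 to 0.312 and split by replicate in the shortest genes.

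Of the longest genes, 175 of 179 had a change above 0. CAT8 and GDB1, named above, are among them, as are PDR12 and PDR15, membrane pumps for weak acids and drugs. PDR12 (4536 nt) had 16.7 and 26.4 CPM in log phase and 99.4 and 210 in starvation (log2 change 2.83), and PDR15 rose by 2.60. VPS13 (9435 nt), a lipid transfer protein, had 163 and 273 CPM against 612 and 765 (1.66), and DYN1 (12279 nt), the dynein heavy chain, 32.9 and 41.2 against 100 and 121 (1.58). The calls of VPS13 and DYN1 were lost without starved replicate 2, and that of VPS13 also without log replicate 1.

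Ribosomes lay further towards the 3' end in most genes after starvation. The library medians over 3979 genes were -0.142 and -0.140 in log phase and 0.0597 and 0.0553 in starvation. The difference of 0.199 had an exact permutation p of 0.333 (two-sided), the smallest that 2 libraries against 2 allow. In log phase 11.5% and 13.7% of genes had a score above 0, and in starvation 65.5% and 61.1%. Per gene the median change was 0.185, and 89.9% of genes moved towards the 3' end.

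**Figure D4:**
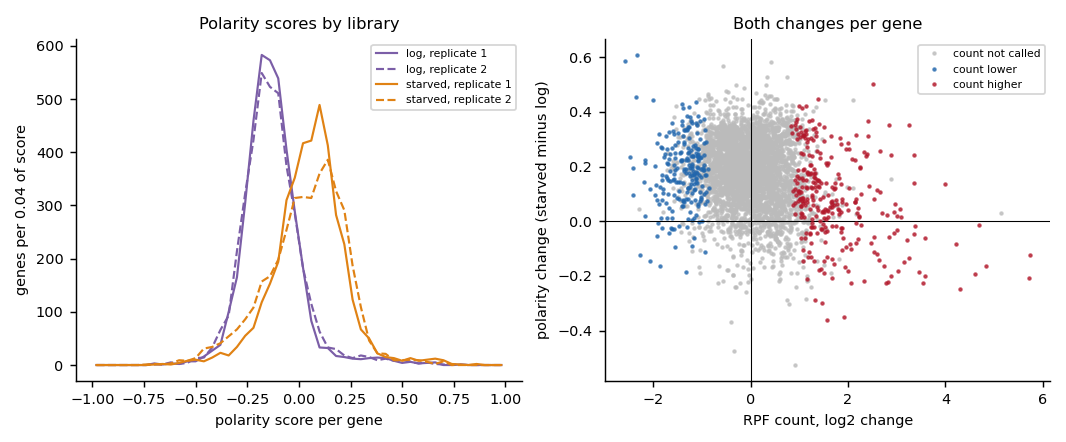
Left, number of genes per 0.04 of polarity score in each library, with purple for log phase, orange for starvation, solid lines for replicate 1 and dashed for replicate 2. Right, change in polarity against log2 change in RPF count per gene, with red for genes whose count rose, blue for those whose count fell and grey for the rest, and red points reach below 0 more often than grey ones (29.4% against 8.58%).

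The largest polarity rises with at least 100 reads in every library were of RPL11A, from -0.426 and -0.497 to 0.234 and 0.0590, and RPS8A, from -0.691 and -0.587 to -0.322 and 0.215. The starved libraries of RPS8A were far apart, at 278 and 125 reads. VHC1, a vacuolar cation and chloride transporter, went from -0.377 and -0.351 to 0.173 and 0.267, and FAR1, which holds the cell cycle in the pheromone response, from -0.282 and -0.320 to 0.188 and 0.159. The Hsp70s SSB2 and SSA2 rose by 0.567 and 0.469, the sodium antiporter NHA1 by 0.463, RPP1A by 0.454 and CBR1 by 0.448. FRE1, an iron reductase, was the one gene of these 10 whose RPF count rose as well: its polarity went from -0.235 and -0.328 to 0.201 and 0.243 and its CPM from 29.4 and 35.2 to 228 and 144. Reads of near copies may be counted on the wrong gene, so the scores of RPL11A, RPS8A, SSB2 and SSA2 are less certain. Their paralogs RPL11B, RPS8B, SSB1 and SSA1 changed by 0.428, -0.0259, 0.439 and 0.0830.

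Polarity rose in some glycolytic genes. CDC19 went from -0.146 and -0.235 to 0.0764 and 0.171, PFK1 from -0.145 and -0.211 to 0.119 and 0.153, and PDC1 from -0.0737 and -0.126 to 0.147 and 0.227. PGK1 rose by 0.207 and PGI1 by 0.245, and PAB1, the poly(A)-binding protein, by 0.280. Of 19 glycolytic genes tested 9 rose in polarity, a share close to the 41.5% over all genes. The abundant FBA1 (0.0365), ENO2 (0.0988), GPM1 (0.142) and HXK2 (0.0897) had changes that did not pass. None of these 9 had risen in count, and none of the 4 genes risen in count that were tested passed. HXK1 and EMI2 had polarity changes of -0.0692 and -0.0469.

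Several lists moved further towards the 3' end than the median gene. Of 65 amino acid biosynthesis genes tested 50 rose in polarity (median change 0.258), of 21 aminoacyl-tRNA synthetases 15 (0.230), of 20 purine genes 17 (0.240), of 16 coat genes 13 (0.308) and of 151 ribosome biogenesis genes 99 (0.224), beside 41.5% and 0.185 over all genes tested. The coat genes are long, with a median coding length of 2469 nt. Of all genes from 2000 to under 4000 nt 62.2% rose in polarity (median change 0.244). The other lists had median lengths from 1333.5 to 1824 nt, and of genes from 1000 to under 2000 nt 41.1% rose (0.185). They were not matched for read depth. Over genes with over 100 reads in every library the library medians differed by 0.222, against 0.199 over the 3979 genes. ADE17 rose in polarity by 0.243 together with its count. Most ribosomal proteins started out differently, with a median polarity of 0.269 in the large subunit and 0.165 in the small in log phase. Their median changes were 0.154 and 0.169. The 5 P-stalk genes instead had a log phase median of -0.277 and a median change of 0.229. These lists were not split by number of coding exons. At the other end, 3 of 38 respiratory chain and ATP synthase genes (7 with the replicate block) and 0 of 11 histone genes (1 with the block) rose in polarity in limma (medians 0.0321 and 0.0746). All 11 histone changes lay above 0. Both lists hold short genes, with median coding lengths of 384 and 399 nt. Of all genes under 500 nt 9.57% rose in polarity, with a median change of 0.0748, or 0.157 without starved replicate 2. With the block 93 of these 397 genes rose. The low values of these lists are thus near those of their length class.

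**Figure D5:**
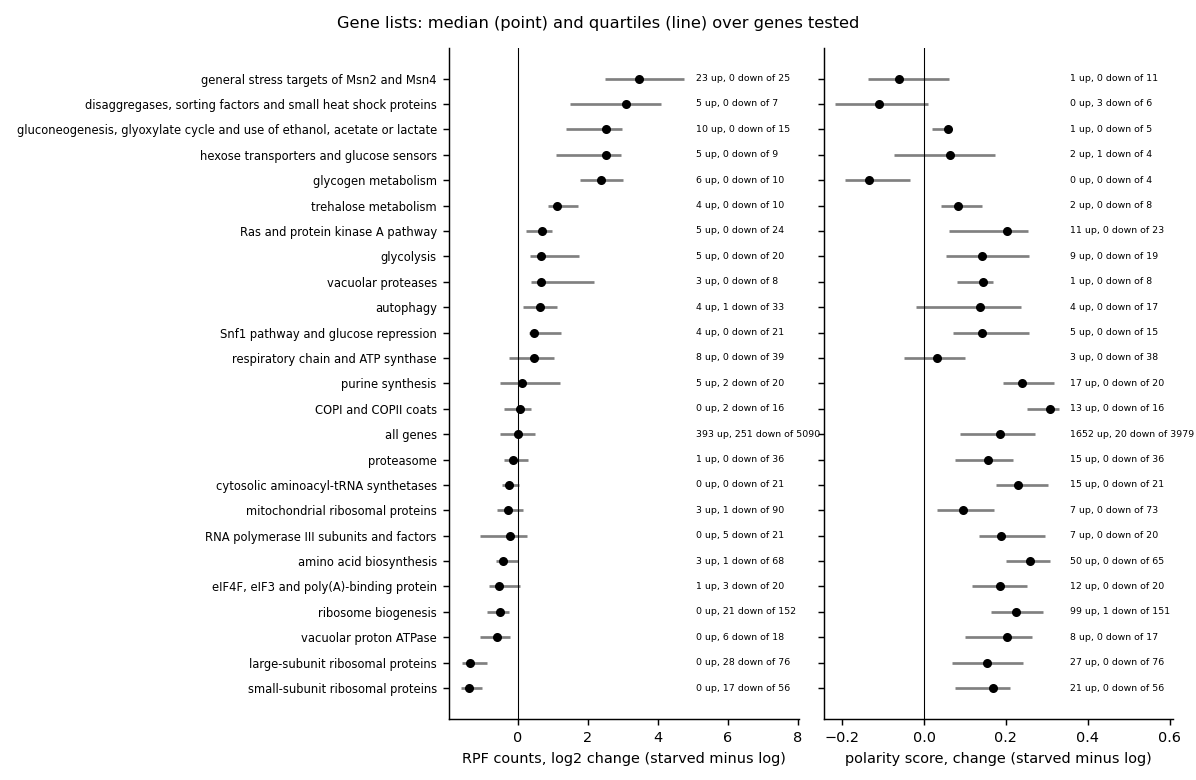
Median and quartiles of the log2 change in RPF count (left) and of the change in polarity (right) over the genes tested in each list, with the number called up and down printed beside. Of the lists drawn, stress targets have the highest count median at 3.46 and the large and small ribosomal subunits the lowest at -1.35 and -1.39, while on the right the coats reach 0.308 and the stress targets, disaggregases and glycogen genes lie below 0.

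Genes whose counts rose moved less in polarity, or the other way. Over 286 genes tested for both, the median change was 0.0755 where the count rose, against 0.191 in 3474 genes whose count was not called and 0.184 in 219 whose count fell. Polarity changed by less than 0 in 29.4%, 8.58% and 8.22% of them. In each library the median score of risen genes minus that of uncalled genes was 0.0145 and 0.00570 in log phase and -0.0964 and -0.0980 in starvation (exact permutation p of 0.333, two-sided, the smallest possible). With each library left out in turn the median of the risen genes stayed between 0.0669 and 0.0896. With classes from the replicate block it was 0.121 in 671 risen genes and 0.193 in 2663 uncalled ones. Larger rises went with lower scores: the median polarity change was -0.0692 in 25 genes that rose 8-fold or more, 0.0445 in 54 that rose 4- to 8-fold, and 0.0944 in 207 that rose less. Among genes of 4000 nt or more, the medians were nearly equal, at 0.311 where the count rose and 0.312 where it was not called.

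The 20 polarity falls held 10 genes whose counts rose. HSP104 went from -0.00729 and 0.00239 to -0.263 and -0.190, HSP78 from -0.0952 and -0.0968 to -0.348 and -0.285, and BTN2 from -0.244 and -0.285 to -0.492 and -0.456. HXT2 fell from -0.0593 and -0.0514 to -0.252 and -0.186, a call also lost without starved replicate 1, and BNA7, of NAD synthesis, by 0.212 of score. Of genes whose counts did not rise, RPA34, a subunit of RNA polymerase I, went from -0.160 and -0.168 to -0.297 and -0.510, a call also lost without starved replicate 2, and SBA1, an Hsp90 co-chaperone, from 0.391 and 0.457 to 0.286 and 0.228. The largest falls over all depths were of short genes with fewer reads: KGD4 (372 nt), from 0.000329 and -0.000231 to -0.590 and -0.461, UTP30 by 0.475 and TOM5 by 0.370 of score. Of the 20 genes, 10 hold a STRE, beside 18.7% of all genes tested for polarity.

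Polarity also followed coding length. The median change was 0.0748 under 500 nt, 0.140 from 500 to under 1000 nt, 0.185 from 1000 to under 2000 nt, 0.244 from 2000 to under 4000 nt and 0.312 at 4000 nt or more, and 38 of 397 of the shortest genes (9.57%) but 158 of 172 of the longest (91.9%) rose. With the replicate block 93 of the 397 shortest and 165 of the 172 longest rose. The step in short genes rests on starved replicate 2. The median difference under 500 nt was 0.171 between the first replicates and -0.0147 between the second ones. Without starved replicate 2 the medians were 0.157, 0.180, 0.171, 0.219 and 0.298 in the same order, so the rise lay above 2000 nt. VPH1, VMA1, SEC31 and RPO31 rose in polarity by 0.329, 0.334, 0.328 and 0.314.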

How the data were processed

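Yeast RPF libraries of 28 nt fragments were compared between 2 log phase and 2 starved samples, grouped by their labels. The deposited values are raw read counts per gene, which the authors made with HTSeq on R64 gene features after trimming and alignment, and are not normalized. Per the submitters' processing notes cutadapt, Bowtie and HTSeq were used across the series, with versions not given in these sources. The deposited polarity score of each gene was computed by the authors with their own code from aligned RPFs, on a scale from -1 to 1. Genes without reads are not listed in a library and were taken as 0 reads. The 30 value columns of other libraries were not used here, nor were RNA libraries.

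Counts were tested with edgeR 4.0.16 (quasi-likelihood test, TMM, filterByExpr) and polarity with limma 3.58.1 (trended variance) on genes above 25 reads in each library, in R 4.3.3, with Benjamini-Hochberg adjustment over all genes tested and calls at 0.05. CPM are per library after TMM. The study's methods give pairing by split cultures without naming numbers, and same-numbered samples deviated together (r of 0.447 over 2058 genes in counts and 0.271 over 3979 in polarity, with 2 pairs), so fits with the replicate number as a block are given beside those without. Both tests were run on simulated data: of genes changed 4-fold 90.3% were found in counts and of those changed 2-fold 17.3%, with 8.13% of calls false, and of polarity changes of 0.4 and 0.2, 91.3% and 23.3% were found, with 9.82% of calls false. The simulations changed few genes, as many up as down, in libraries that varied independently. In the real data most polarity scores rose and same-numbered samples deviated together, so these shares may not carry over. Depth was 1862525 to 5170260 reads. Alternatives were DESeq2 1.42.0, other size factors, filters and read minimums, no variance trend, genes with 1 coding exon, a replicate block and leaving out each library. Of 5578 genes 5574 were matched to RefSeq R64, which gave coding lengths and promoters. Genes were named by rule: those the study names for these libraries, the 12 largest rises and falls in counts with at least 20 CPM, the 10 largest in polarity with at least 100 reads per library, up to 5 members of each list by adjusted p (3 in polarity), and isozymes. Further members were named after their values were seen: the long and short subunits of complexes, the long genes PDR12, PDR15, VPS13 and DYN1, and the lower-depth polarity falls. The members and gene lists were chosen with earlier results of these data known.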

Additional observations from a re-analysis of the deposited data

How the results depend on the processing

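Of 126 genes named for counts, 120 kept their direction under every alternative run, and all 41 named for polarity did. The exceptions passed no test: without starved replicate 1 the log2 changes were TDH3 -0.26, ENO2 -0.24, CDC19 -0.33, PDC1 -0.074 and SSA2 -0.48, without log replicate 2 that of CDC19 was -0.09, and without log replicate 1 that of HSC82 was -0.045. With each library left out, these changes ranged up to 0.76 for TDH3, 0.85 for ENO2, 0.50 for CDC19, 0.67 for PDC1, 0.54 for SSA2 and 0.47 for HSC82. With 1 library left out, 145 to 428 genes rose and 21 to 330 fell in counts, and 0 to 2296 rose and 0 to 145 fell in polarity, where the lone library of a group is taken to vary like the other group. The lowest polarity counts came without a log library, with 1196 and 1203 rises and 18 and 15 falls at an unadjusted p under 0.05 in limma. The minimum of 100 reads left 6 polarity falls. DESeq2 called 458 rises and 354 falls, within 1.5 times of edgeR. With the replicate block 840 genes rose and 752 fell in counts, and 2233 rose and 46 fell in polarity. The block added calls of HSP82, HXK2, TDH2, ENO1, CIT1 and ACS2 in counts and changed no other call of the 126 and the 41 genes. Depth was lower in both starved libraries than in both log libraries, and its part in the calls was not tested.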
